A study of Drosophila melanogaster with 3 samples.

Results

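The genes described here are the cuticle protein genes of Drosophila melanogaster that could be recognised by symbol, read in RNA of the larval lymph gland. They are the genes whose symbol begins with Cpr and a digit, Lcp, Ccp84, Edg, Acp65 or Twdl, and 124 of the 17490 genes in the count tables met that rule, which uses no measured value. Whole lymph glands, the blood-forming organ of the larva, were taken from larvae of the wild-type strain Oregon-R in steady state, and total RNA was sequenced in bulk at 72, 96 and 120 h after egg laying (AEL), the time meant by every hour below. There was 1 library at each time, from glands pooled without dissociation, and all 3 groups shared strain and condition and differed in their labels by age alone. The methods of the study say that the primary lobes were kept and that posterior lobes, ring gland and dorsal vessel were cut away. With 1 library per time no difference below has a replicate check or a p-value, and each comparison is between libraries.

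Insect cuticle is a layered extracellular matrix of chitin fibres and proteins, secreted by the epidermis and by tube epithelia that face the outside, such as the trachea. A new cuticle is laid down before each larval molt, and most cuticle protein genes are transcribed in short pulses timed by the steroid hormone ecdysone. Cpr genes encode proteins with the Rebers and Riddiford chitin-binding domain and are named by cytological position. Lcp genes encode larval cuticle proteins, and Ccp84 genes form a cuticle gene cluster at cytological position 84A. Twdl genes encode Tweedle proteins, a separate cuticle family named for the body shape of a TwdlD mutant. Edg genes were isolated as ecdysone-dependent genes, and Acp65Aa is an adult cuticle protein gene.

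Total counts were 49511614, 37922500 and 34278733 at 72, 96 and 120 h. Levels are given as counts per 1000000 counts of the library (CPM), scaled by TMM factors of 1.05, 0.989 and 0.967, and a count of 3 stood for 0.0579, 0.0800 and 0.0905 CPM. A share of 69.6%, 72.0% and 70.9% of genes with 1 to 20 counts had an even count, more than independent reads would give, so the 95% intervals below, which cover counting error only, are too narrow. The 8 hemocyte markers on the list (srp, Hml, Pxn, Tep4, NimC1, eater, lz and PPO1) had counts in every library and summed to 22956, 39466 and 38616 CPM. At 96 against 72 h 4 of them (NimC1, eater, lz and PPO1) were over 4-fold higher and none over 4-fold lower, with a median log2 ratio of 1.83. By the same rule, given below, 1.2% of the 9056 genes tested were higher and 8.62% lower. In bulk RNA, fewer cells of a type and less RNA per cell cannot be told apart.

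Many more of the cuticle protein genes were detected at 72 h than later. At 72 h, 71 of the 124 members had at least 10 counts, against 19 at 96 h and 13 at 120 h. Over all genes, the number with at least 10 counts moved far less, from 10199 to 8709 and 8598. The share with at least 10 counts at 72 h was 57.3% of the members and 58.3% of all genes, so detection at 72 h did not set the members apart. Of the members, 16 had no count in any library and 50 (40.3%) were under 10 counts in each library. Of all genes 39.9% were under 10 counts in each library, so this share did not set them apart either. The members together took 27532 counts at 72 h, 5207 at 96 h and 16879 at 120 h, which is 0.0556%, 0.0137% and 0.0492% of each library.

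The summed level hid a change in which genes carried it. The sum was 532 CPM at 72 h (95% Poisson interval 525 to 538), 139 CPM at 96 h (135 to 143) and 509 CPM at 120 h (502 to 517). Cpr49Ac alone held 13.1% of the member counts at 72 h, 76.7% at 96 h and 93.6% at 120 h. Without it the summed level of the other 123 members was 462, 32.3 and 32.6 CPM. The sum at 120 h was thus close to that at 72 h through 1 gene. At 72 h, 8 members were needed to reach 50% of the member counts and 31 to reach 90%, whereas at 120 h Cpr49Ac was past 90% by itself. Lcp1 to Lcp4 summed to 5.02, 21.2 and 19.6 CPM. The remaining 119 members summed to 457 CPM (451 to 463) at 72 h, 11.1 CPM (10.1 to 12.2) at 96 h and 13.0 CPM (11.8 to 14.3) at 120 h. Against 72 h, their sum was 41.1-fold lower at 96 h (95% interval 37.3 to 45.4) and 35.1-fold lower at 120 h (31.9 to 38.6), a division of the members chosen after their values were seen.

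**Figure D1:**
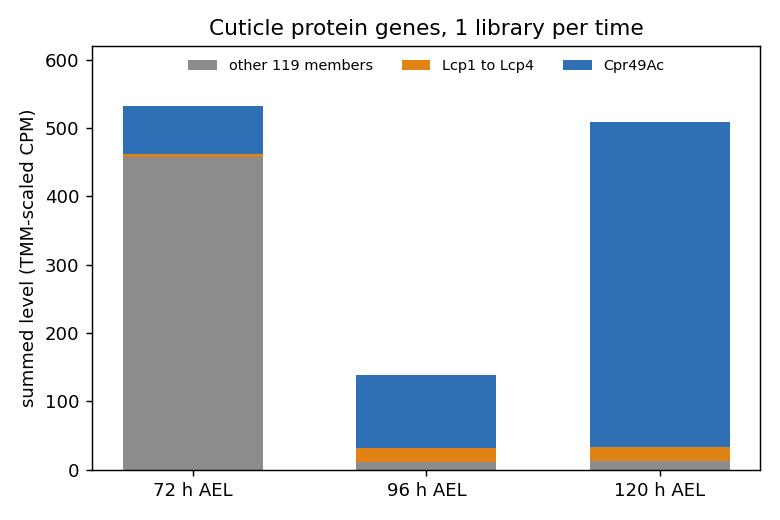
Summed level of the cuticle protein genes in TMM-scaled CPM (y axis) in the library of each time (x axis), stacked as 119 members in grey, Lcp1 to Lcp4 in orange and Cpr49Ac in blue. The bars reach 532, 139 and 509 CPM, and the blue segment grows from 69.6 to 477 CPM while the grey one shrinks from 457 to 13.0 CPM.

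A level compared between genes was taken per kilobase of exon. At 72 h the highest members were Cpr64Ad (44.3 CPM per kb), Cpr65Ea (42.3), Lcp65Af (36.6), TwdlH (33.5), Cpr49Ac (32.9) and TwdlF (32.6), so the top of the order held Cpr, Lcp and Twdl genes. At 96 h Cpr49Ac led with 50.3 CPM per kb, and Lcp3 followed with 7.89. At 120 h Cpr49Ac was at 225 CPM per kb and Lcp1, the next, at 8.27. Among the 17216 genes with an exonic length, Cpr49Ac ranked 1929th per kb at 72 h, 1293rd at 96 h and 303rd at 120 h.

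Many members were lost after 72 h. A size rule stood in for a test: a gene was called when log2 of the ratio of CPM, after adding 1 CPM to each, was at least 2 in size (4-fold), among the 9056 genes with at least 1 unscaled CPM in at least 1 library. Of the 124 members 52 passed that filter, 42 of them through the 72 h library alone, as did 1352 of the 9056 genes. A member that passed in that way had to be lower later, so the calls describe it and add no support. The shares of all genes tested, here and for each family and list below, cover genes that mostly passed in other ways. They are therefore not a matched background. At 96 against 72 h 34 members were lower and 1 was higher, while 8.62% of all genes tested were called lower and 1.2% higher. The median log2 ratio was -2.54 over the 52 members tested and -0.22 over all 124, against -0.02 over the 9056 genes tested. The 34 lower members had 3.24 to 42.6 CPM at 72 h (median 10.4) and at most 43 counts at 96 h, and 19 of them were at 0 counts there. With 5 CPM added instead of 1 CPM, 9 members were called lower and 0 higher, and with a filter of 10 CPM 18 were called lower and 0 higher.

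A second count is the share of members that were clearly detected at 72 h and near 0 later. It too picks genes by the 72 h library, members and all genes alike, so it describes the fall and adds no support. Of the 71 members with at least 10 counts at 72 h, 40 were at or under 3 counts in both later libraries, a pattern met by 9.59% of the 10199 genes with as many counts. No count at all was left in either later library for 30 of the 71, against 5.9% of those genes. The share was higher among the members in each of 3 wide classes of counts at 72 h. These classes do not match members and all genes by level. In the top class, which has no upper limit, the highest member had 3606 counts and Tep4 had 633755. With 10 to 99 counts at 72 h it was 18 of 29 members (62.1%) against 31.6% of all genes, with 100 to 999 counts 19 of 35 (54.3%) against 8.93%, and with 1000 counts or more 3 of 7 (42.9%) against 0.970%. Genes are not replicates, so these shares describe the libraries.

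**Figure D2:**
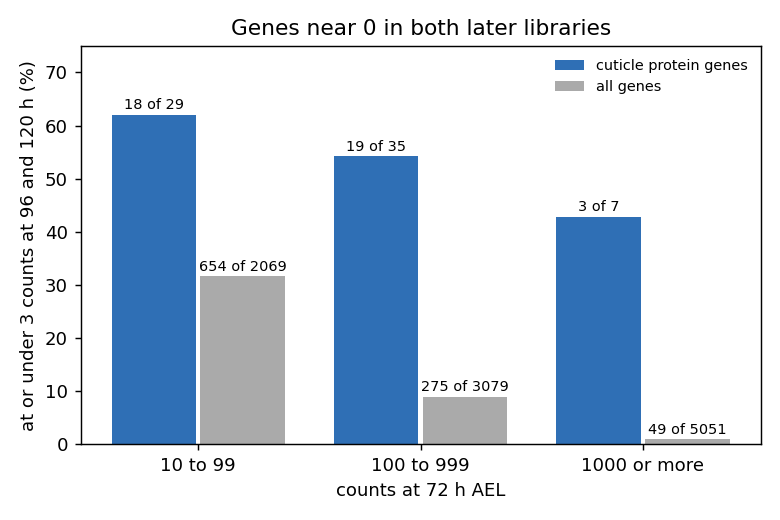
Percent of genes at or under 3 counts in both later libraries (y axis), for cuticle protein genes (blue) and all genes (grey), in classes of counts at 72 h (x axis); the numbers above the bars are genes. The blue bar is the higher one in each class, with 62.1%, 54.3% and 42.9% against 31.6%, 8.93% and 0.970%.

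**Figure D3:**
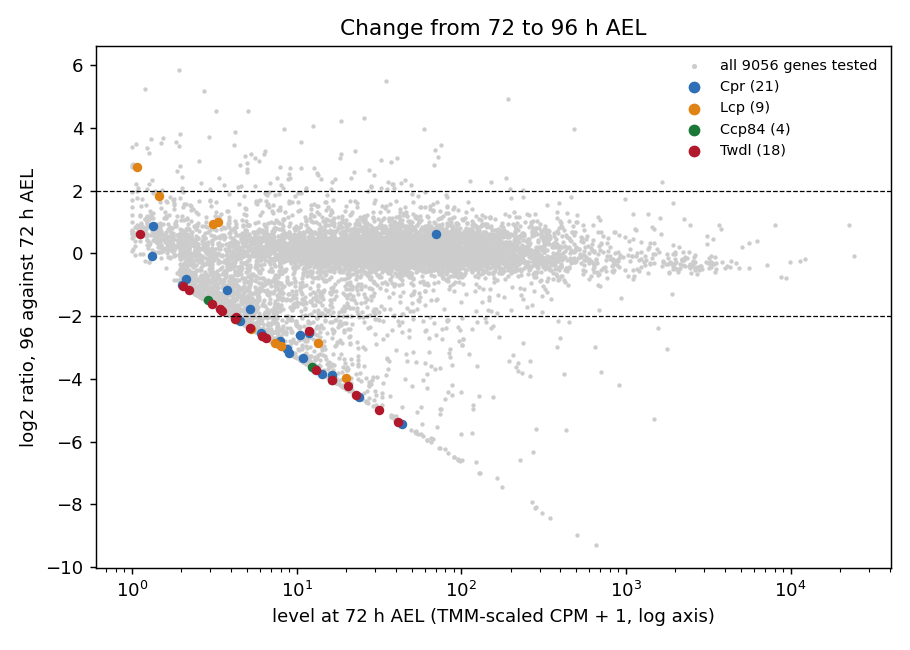
Log2 ratio of 96 against 72 h with 1 CPM added (y axis) against the level at 72 h (x axis, log scale) for all 9056 genes tested (grey) and the 52 members tested, coloured by symbol family; dashed lines mark the 4-fold rule. Most members lie on the lower diagonal edge, where the later library is at or near 0 counts, and 1 member, Lcp1, lies above the upper line.

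Among the Cpr genes, Cpr64Ad had the most counts of those that were lost. It had 2206 counts at 72 h, 0 at 96 h and 4 at 120 h, and its level was at least 533-fold lower at 96 than at 72 h, with a floor of 3 counts per library; this bound, like the others below, leaves out counting error, and its interval reaches down to 182. It lies on chromosome arm 3L, 4215379 to 4216414 (BDGP6.54), in the same cluster as Cpr64Ab, which had 689, 0 and 0 counts. Cpr65Ea (3L, 7086003 to 7086608) had 1183, 0 and 0 counts and was at least 286-fold lower at 96 h. All 3 therefore went from at least 689 counts to 4 or fewer.

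Cpr51A (2R, 14512559 to 14515211) had 793, 4 and 5 counts, a 144-fold lower level at 96 than at 72 h (95% interval 55.9 to 528). Cpr47Eb had 622, 0 and 0 counts and Cpr11A, on the X chromosome, 417, 0 and 0. Cpr78Cc, Cpr49Ag, Cpr67Fa2, Cpr31A and Cpr66D started between 264 and 512 counts and were at 0 to 6 counts in the later libraries. Each of these genes fell by the size rule at both later times. Of the 70 Cpr members, 34 had at least 10 counts at 72 h and 19 had none there. Of the 21 that passed the filter 14 fell at 96 h, against 8.62% of all genes tested.

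Most Tweedle genes recognised by symbol were detected at 72 h, with 21 of 26 at 10 counts or more. Of those 21, 17 were at or under 3 counts in both later libraries. TwdlF (3R, 4247020 to 4248313) had 2084, 0 and 4 counts and was at least 503-fold lower at 96 h. TwdlH (3R, 26633732 to 26634714) had 1598, 0 and 0 counts and was at least 386-fold lower. TwdlM (3R, 26619118 to 26620224) had 1144, 0 and 0 counts and was at least 276-fold lower. All 3 were among the 7 members with 1000 counts or more at 72 h, and none kept more than 4.

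TwdlBeta (2R, 11862537 to 11863252) had 1013 counts at 72 h and 4 in each later library, 183-fold lower at 96 h (71.4 to 674). TwdlW with 804 counts, TwdlY with 629, TwdlL with 287 and TwdlB with 269 at 72 h were all at 0 later. TwdlG was the exception among the abundant Tweedle genes. It had 568, 43 and 26 counts, and against 72 h it was 9.57-fold lower at 96 h (7.01 to 13.4) and 14.0-fold lower at 120 h (9.44 to 21.6). In all, 12 of the 18 Tweedle genes that passed the filter fell at 96 h by the size rule, against 8.62% of all genes tested. Another 5 that passed the filter, TwdlP, TwdlJ, TwdlN, TwdlS and TwdlQ, were at 0 at 96 h but had too low a level at 72 h, 1.04 to 2.55 CPM, for a 4-fold ratio after adding 1 CPM, and these 5 are named after their values were seen.

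Of the 7 Ccp84 genes, 6 had at least 10 counts at 72 h and none did later. Ccp84Ag (3R, 6686728 to 6688039) had 795, 0 and 8 counts and was at least 192-fold lower at 96 h. Ccp84Ae had 587, 0 and 0 counts and was at least 142-fold lower. Both fell at 96 h, as did 1 further member of the cluster, among 4 Ccp84 genes that passed the filter. Of all genes tested 8.62% fell. The 3 Edg genes stayed low in every library: Edg91, the highest of them, had 6, 1 and 0 counts. Acp65Aa, the adult cuticle gene, had no count in any library, so the upper limit is 3 counts in each.

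The Lcp genes divided into those that fell and those that did not. Of the 9 Lcp genes that passed the filter 5 fell at 96 h, against 8.62% of all genes tested. All 5 were of the Lcp65A group, and the other Lcp65A genes had at most 16 counts at 72 h. Lcp65Af (3L, 6136215 to 6136791) had 984, 10 and 0 counts and was 71.3-fold below its 72 h level at 96 h (38.6 to 149). Lcp65Ag2 and Lcp65Ag3 had 367 and 334 counts at 72 h and 2 or fewer later. Lcp65Ag1 had 650, 32 and 6 counts, 14.7-fold below its 72 h level at 96 h (10.3 to 21.7). The 3 Lcp65Ag genes are near copies of each other, as are Cpr67Fa1 and Cpr67Fa2, and reads may be split among them, so their separate counts are uncertain. Exons of Lcp65Ag3 also overlap an antisense RNA gene, and the use of strand in the counting is not stated.

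A few members were still measurable at 96 h on the way down. Cpr47Eg (2R, 11277957 to 11278445) had 562, 39 and 6 counts, so it was 10.4-fold below its 72 h level at 96 h (7.54 to 14.8) and a further 5.74-fold lower at 120 h (2.41 to 16.6). Cpr47Ec (2R, 11259106 to 11259976) had 489, 27 and 2 counts, 13.1-fold below its 72 h level at 96 h (8.90 to 20.1). With Lcp65Ag1, whose level was 4.71-fold lower at 120 than at 96 h (1.94 to 13.8), they form a group of members with lower counts at each step. None of the 3 was called lower in the second step with 1 CPM added. With 0.1 CPM added, Cpr47Ec and Cpr47Eg were.

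**Figure D4:**
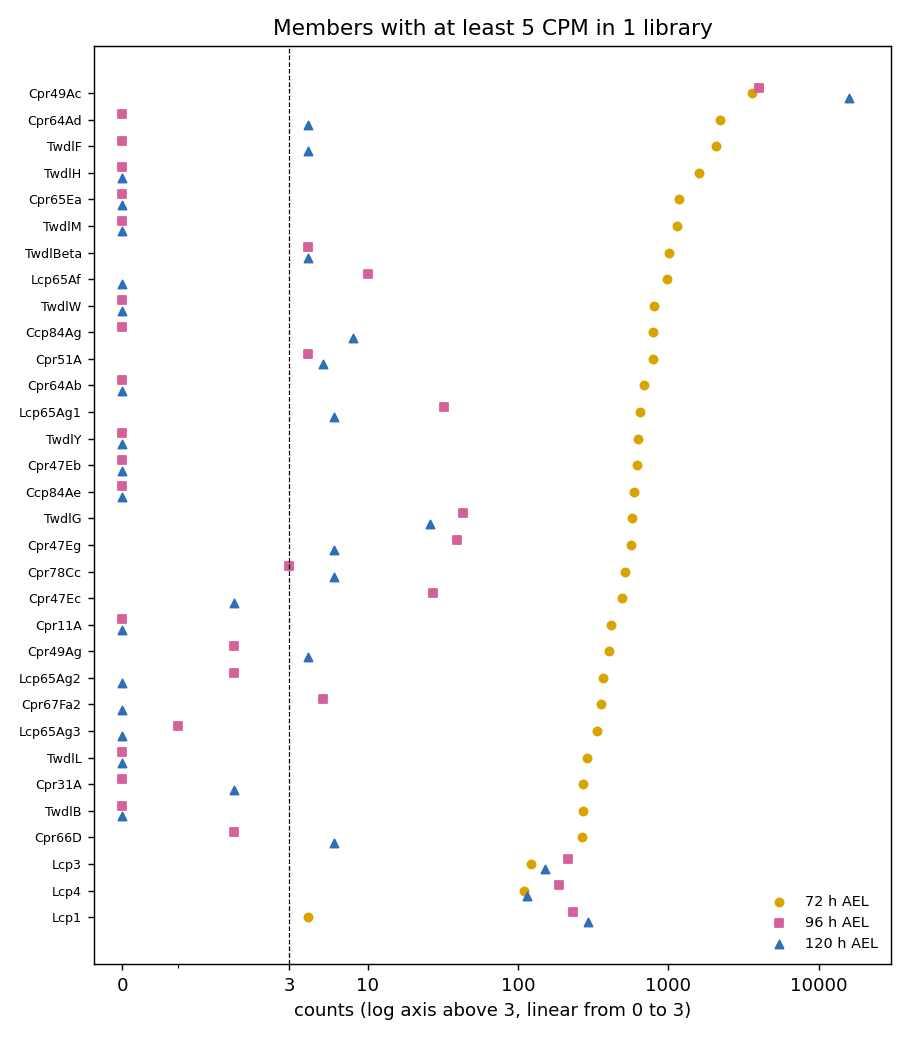
Counts (x axis, log scale above 3 and linear from 0 to 3) of the 32 members with at least 5 CPM in at least 1 library (y axis, ordered by the level at 72 h) at 72 h (circles), 96 h (squares) and 120 h (triangles); the dashed line marks 3 counts. Of the 32, 28 have their highest count at 72 h and at most 43 counts later, and Cpr49Ac, Lcp1, Lcp3 and Lcp4 do not.

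Between 96 and 120 h Cpr49Ac was the only member called, and most members were near 0 in both libraries. Of the 52 members tested 1 was called higher and 0 lower, against 0.188% and 0.0663% of all genes tested. With 1 CPM added, only Cpr49Ac and Lcp1 to Lcp4 were high enough at 96 h to be called lower. The median log2 ratio was 0 over the members and over all genes tested. Of the 52 members, 17 were below 0 and 16 above, and the rest had no count in either library. The median of 0 is therefore not a sign of steady levels. There is 1 library at each time, so no test gave these calls. Leaving out Cpr49Ac, the summed level was 1.01 times as high at 120 as at 96 h (0.930 to 1.10).

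Cpr49Ac (2R, 12386666 to 12390057, plus strand, 6 exons) had 3606 counts at 72 h, 3996 at 96 h and 15798 at 120 h, which is 69.6, 107 and 477 CPM. It was high in all 3 libraries and highest at 120 h. The ratio was 1.53 for 96 against 72 h (95% interval 1.46 to 1.601), 4.47 for 120 against 96 h (4.32 to 4.63) and 6.85 for 120 against 72 h (6.60 to 7.10). Its log2 ratio of 2.15 for 120 against 96 h was the 13th highest of the 9056 genes tested and lay just past the limit of 2.

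The other 7 genes of its cluster did not share this course. Cpr49Aa to Cpr49Ah summed to 4026, 4032 and 15824 counts, nearly all from Cpr49Ac, and Cpr49Ag, with 402, 2 and 4 counts, went the other way. Immediately downstream, Cpr49Ad had 2, 0 and 0 counts. The next gene upstream on the same strand, CG8501, had 2118, 3447 and 8119 counts (40.9, 91.9 and 245 CPM), so it was also highest at 120 h; CG8501 is not a member and is named after its values were seen. Of the 3 genes on either side of Cpr49Ac, CG8501 was the only other one with more than 4 counts in a library. Whether the 2 courses are related was not tested.

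Lcp1 to Lcp4 are the classic larval cuticle protein genes of the third instar and lie together on 2R, from 8430115 to 8438495. Lcp1 had 4, 233 and 292 counts, or 0.0772, 6.21 and 8.81 CPM. By 96 h it was 80.4-fold above its 72 h level (31.0 to 298), and it was the 1 member called higher in that comparison, a call that was lost with 5 CPM added. Lcp2, named after its values were seen, had 24, 157 and 93 counts and a 9.03-fold higher level at 96 than at 72 h (5.85 to 14.5), just under the size rule at a log2 ratio of 1.83.

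Lcp3 had 122, 216 and 150 counts, a level 2.44-fold above its 72 h level at 96 h (1.95 to 3.08). Lcp4 had 110, 188 and 114 counts, 2.36-fold higher (1.86 to 3.01). Neither was called. All 4 genes had more counts at 96 h than at 72 h although the 72 h library was the deepest. From 96 to 120 h Lcp1 was 1.42-fold higher (1.19 to 1.69), while Lcp2, Lcp3 and Lcp4 were 1.49-fold, 1.27-fold and 1.46-fold lower. Lcp1 and Lcp2, with the pseudogene Lcp1Psi, and likewise Lcp3 and Lcp4, are near copies, so the division of counts within each pair is uncertain. Lcp1Psi had 0, 0 and 1 counts.

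A small number of other members had their higher counts late, and these are named after their values were seen. Cpr66Cb (3L, 8336672 to 8338595) had 18, 56 and 126 counts, a level 10.9-fold higher at 120 than at 72 h (6.65 to 19.1), at 3.80 CPM at most. Cpr78E had 17, 10 and 40 counts, and Cpr49Ah 0, 24 and 20. None was called. TwdlE had 6, 27 and 42 counts, but its exons overlap by 968 bases those of lectin-28C on the opposite strand, which had 48, 4163 and 6402 counts, and without a stated use of strand the reads of TwdlE cannot be told apart from reads of that gene.

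At 120 against 72 h 2 members, Cpr49Ac and Lcp1, were called higher and 34 lower, against 2.11% and 9.68% of all genes tested. With 5 CPM added, 1 was called higher, Cpr49Ac, and 8 lower, and with 0.1 CPM added 5 were called higher. With a filter of 10 CPM, 1 was called higher and 18 lower. This comparison shares the 72 h library with the first, so it is not a separate result. The median log2 ratio was -2.60 over the 52 members tested and -0.21 over all 124, against -0.04 over all genes tested. Lcp1 was 114-fold higher at 120 than at 72 h (44.1 to 421).

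No coordinate was used to choose the members, but the symbol Ccp84 names a cluster by its cytological position. On the Ensembl annotation (BDGP6.54), 48 members lay on 3L, 34 on 3R, 28 on 2R, 8 on X and 6 on 2L. Most sat in tandem arrays: 91 of 124 fell in 15 clusters of 3 or more members with gaps of at most 20 kb. Of the members, 121 are annotated as protein coding and 3 as pseudogenes, 76 have 2 exons and 19 have 1 exon, and the median exonic length is 846 bases. Of the members with at least 10 counts at 72 h, 33 of 52 inside clusters were at or under 3 counts in both later libraries, and 7 of 19 outside. Neighbours in an array share their surroundings and are not independent of each other.

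In several arrays the summed counts went to near 0, and 3 of them come first. The TwdlM to TwdlD array on 3R, 12 genes within 21.9 kb, had all 12 at 10 counts or more at 72 h and a sum of 4246 counts, which went to 2 counts at 96 h and 0 at 120 h. The array from Edg84A to Ccp84Aa on 3R, 8 genes, summed to 1719, 1 and 15 counts. In it, 6 of the 8 had at least 10 counts at 72 h. Of the 4 that passed the filter 3 were called lower at 96 h, against 8.62% of all genes tested. Cpr64Aa to Cpr64Ad on 3L, 4 genes, summed to 2901, 2 and 15 counts, a sum carried by Cpr64Ad and Cpr64Ab, while Cpr64Aa had 4, 0 and 9 counts and Cpr64Ac 2 in each library. Of the 3 arrays, only that of TwdlM to TwdlD had every gene detected at 72 h and every gene at or under 3 counts later.

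Cpr65Ea to Cpr65Ec, with 1239, 1 and 1 counts, and TwdlX to Twdlalpha, with 637, 0 and 0, also went to near 0. So did Cpr67Fa1 to Cpr67Fb, with 542, 6 and 0, and Cpr78Ca to Cpr78Cc, with 552, 7 and 6. Cpr62Ba to Cpr62Bc had 30, 0 and 0. The arrays that follow were mixed, silent or higher later. In the largest, the 19 genes from Lcp65Ag3 to Cpr65Az on 3L, 8 genes had at least 10 counts at 72 h and 4 had none, and the sum went from 2626 to 47 and 16 counts. In Cpr47Ea to Cpr47Eg, 5 of 7 genes had at least 10 counts at 72 h, and the sum was 1719, 66 and 8 counts. In TwdlU to TwdlV on 3R, all 4 genes had at least 10 counts at 72 h, and the sum was 2684, 45 and 36 counts. Most of its later counts were those of TwdlG, with 43 and 26. The Lcp1 to Lcp4 array, with Lcp1Psi, had a larger sum later, at 260, 794 and 650 counts, as did that of Cpr49Ac and, at 4 counts or fewer, that of Cpr72Ea. Cpr72Ea to Cpr72Ec and Cpr76Ba to Cpr76Bd had no gene with 10 counts in any library.

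**Figure D5:**
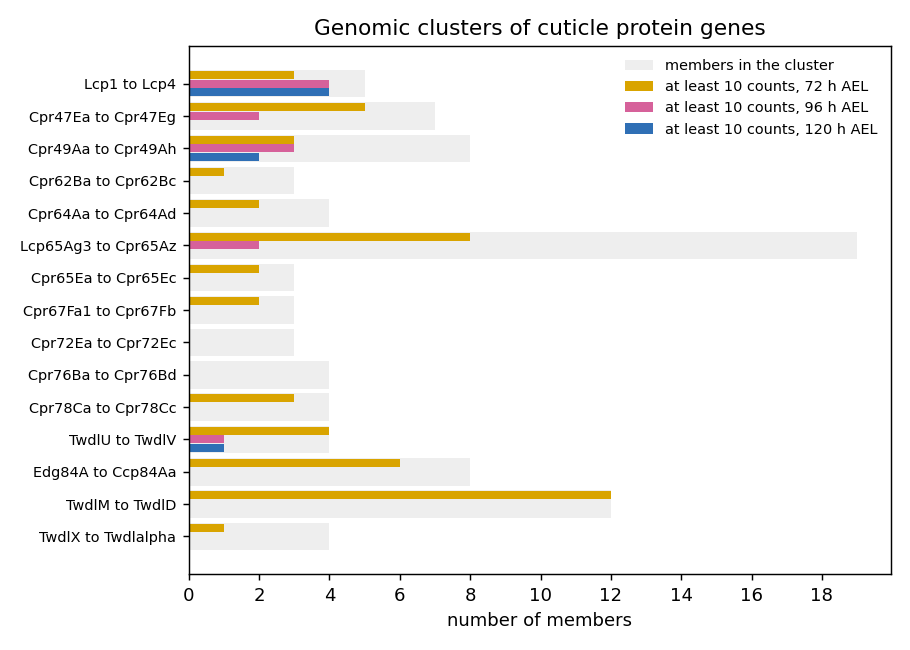
Number of members (x axis) in each of the 15 genomic clusters (y axis): the grey bar is the cluster's size and the coloured bars count members with at least 10 counts at 72, 96 and 120 h. All 12 genes of the TwdlM to TwdlD array pass at 72 h and none later, whereas the Lcp1 to Lcp4 array has 3 at 72 h and 4 at each later time.

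Genes of cuticle proteins whose symbols fall outside the rule, taken from a list, were also largely lower after 72 h. For this and each further list, the calls at 96 h stand beside 8.62% of all genes tested called lower and 1.2% called higher. Of 18 matched genes 12 passed the filter and 9 fell at 96 h, with 0 higher, and their summed level was 284, 14.0 and 11.4 CPM. The chitin-binding protein genes obst-A, with 6605, 167 and 64 counts, and Gasp, with 3081, 162 and 36, were lower later but not at 0, and Tb, a cuticle protein gene whose mutant shortens the body, had 711, 0 and 0. The Osiris genes, insect transmembrane protein genes expressed in cuticle-forming epithelia, were near 0 later. Of 23 matched, 13 passed and 10 fell at 96 h, with 0 higher, and the sum went from 466 to 0.773 and 0.724 CPM. Osi7 had 5175, 2 and 0 counts and Osi6 had 5011, 0 and 0.

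Genes that build the chitin itself did not all go the same way. Of the 9 chitin synthesis genes 7 passed and 0 were called at 96 h, where 8.62% of all genes tested were lower and 1.2% higher, and their sum was 681, 662 and 721 CPM. That sum rests on genes with other uses of the same sugars, such as mmy, the UDP-N-acetylglucosamine pyrophosphorylase gene, with 10170, 7826 and 7231 counts. The chitin synthase gene kkv, which acts in epidermis and trachea, had 1155, 355 and 93 counts. At 120 against 72 h 3 of the 7 that passed fell, kkv among them, against 9.68% of all genes tested. Of 8 chitin organisation genes 2 fell at 96 h: the chitin deacetylase genes serp, with 2713, 143 and 46 counts, and verm, with 4382, 288 and 84.

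Chitin degradation genes were 2 lower and 0 higher at 96 h among 8 that passed, and their sum was 667, 1037 and 1315 CPM, carried by the hexosaminidase gene Hexo2 with 24817, 32883 and 38283 counts. Cht5, a chitinase gene of molting, had 1132, 2 and 4 counts. Of the tanning and pigment genes 4 passed and 2 fell at 96 h, among them y, with 184, 0 and 0 counts. Of the zona pellucida matrix genes, which shape the apical matrix of epidermal cells, 10 passed and 4 fell, dyl from 1515 to 2 and 2 counts.

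Regulators of the molting cycle went in both directions. Among 18 that passed, 2 rose and 3 fell at 96 h, against 1.2% and 8.62% of all genes tested, with a median log2 ratio of 0.08. The early ecdysone response genes br, with 1275, 19297 and 21795 counts, and Eip74EF, with 210, 4347 and 6506, rose. The hormone receptor genes Hr4, with 2210, 17 and 3 counts, and Hr3, listed under its older symbol Hr46 with 424, 12 and 4, fell at 96 h. So did Eip78C, with 490, 40 and 51. EcR, the ecdysone receptor gene, had 1364, 4007 and 4946 counts and ftz-f1, a receptor gene of the late prepupal and molting response, 3423, 1879 and 1618. Blimp-1, an ecdysone-induced repressor gene, had 166, 2 and 0 counts and was just short of a call at 96 h, at a log2 ratio of -1.997. No value here ties these genes to the cuticle protein genes, and such a link was not tested.

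Markers of other tissues moved between the same libraries, and their part in the fall of the cuticle protein genes was not tested. Their calls at 96 h are again to be read against 8.62% lower and 1.2% higher over all genes tested. The lists share genes: nyo, neo and dyl of the epidermal list are also zona pellucida genes, y is also a tanning gene, and pio and vvl of the tracheal list are also on the zona pellucida and regulator lists. The 8 tracheal markers summed to 136, 47.4 and 42.8 CPM, with 2 of the 6 that passed called lower and none higher at 96 h. The tracheal regulator gene trh had 194, 24 and 16 counts, while dys, another listed there, had 301, 672 and 705, and none of the 8 was at 0 in a library. The 10 markers of denticle-forming epidermis summed to 124, 56.2 and 41.8 CPM, with 4 of 9 called lower (nyo, neo, dyl and y, all counted above in another list) and none higher, and of the 10 y and sha were at 0 in both later libraries and f at 96 h. Much of the later epidermal sum was tyn, with 2007, 1898 and 1233 counts.

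The other lists give the same libraries a wider frame. The 9 muscle and dorsal vessel markers summed to 4536, 424 and 284 CPM, with 7 called lower at 96 h and none at 0. Hand, with 2806, 829 and 769 counts, and tin, with 136, 26 and 28, were not called. The 6 neuron markers summed to 93.9, 10.1 and 9.20 CPM, with 5 lower, and brp was at 0 at 96 h. The 6 ring gland markers summed to 645, 168 and 82.5 CPM, with 3 lower, and the 7 fat body markers to 1625, 334 and 487 CPM, with 2 higher and 1 lower, Lsp2 and Fbp2 at 0 at 72 h and Fbp1 at 0 at 96 h. The fat body sum was carried at 72 h by apolpp, with 1484, 37.1 and 39.7 CPM; the other 6 summed to 141, 297 and 447 CPM, and the 2 called higher were Lsp1alpha and Fbp2. The 6 imaginal disc markers were low throughout at 9.42, 5.20 and 5.79 CPM, with ap, at 294, 10 and 60 counts, called lower at 96 h among the 4 that passed, none higher, and vg and nub at 0 at 96 h. Of the 6 midgut markers 1 passed the filter and fell, Jon65Aiii with 4614, 0 and 0 counts, and all 6 were at 0 in both later libraries. The 4 salivary gland markers summed to 0.135, 0.107 and 0.0604 CPM, none passed the filter, and Sgs5 had no count in any library.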

How the data were processed

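For each of the 3 bulk libraries, the authors deposited unnormalized whole-number counts of 17490 genes. The submitters' processing notes name FastQC 0.11.8, STAR 2.5.3a, featureCounts 1.6.0 and the build BDGP6. The annotation, the use of strand and the handling of read pairs are not given in the sources used here. Counts were scaled by TMM factors (edgeR 4.0.16 in R 4.3.3) computed over the 9056 genes that reached 1 CPM in any library. Log2 ratios were taken after adding 1 CPM, which understates changes of low genes. Folds are ratios of scaled counts with exact (Clopper-Pearson) 95% intervals, with a library under 3 counts set to 3. Coordinates, exons and lengths came from Ensembl release 115 (BDGP6.54), on which all 124 members had a location; clusters joined members with gaps of at most 20 kb.

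Named members are those with at least 5 CPM in at least 1 library, those called at 120 against 96 h AEL, and the member with most counts in each symbol family. Others were named after their values were seen. The members and all lists were chosen with earlier results of these data known. Listed symbols were matched to older symbols in the tables where needed. Near copies were grouped by symbol, without sequence identity. Tables were handled in pandas 2.3.3 under Python 3.11.15, intervals came from SciPy 1.17.1, plots from Matplotlib 3.10.9, and the calls were tested on simulated data. Alternatives were DESeq2 1.42.0 size factors, total-count scaling, other pseudocounts, filters and fold limits, calls on whole intervals, halved and thinned counts, and leaving out near copies or the most abundant members.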

Additional observations from a re-analysis of the deposited data

How the results depend on the processing

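With 1 library per time, a replicate could not be left out. No paired analysis was possible because each time has 1 library and the result comes from no test. Of 384 values of the 32 named genes under other scalings and pseudocounts, 341 kept the same state, called or not called. Many of these had no call to lose, as at 120 against 96 h AEL only Cpr49Ac was called. Of the rest, 41 lost a call, 2 gained one and 0 changed direction. The 2 gained were Cpr47Ec and Cpr47Eg, called lower at 120 against 96 h AEL with a pseudocount of 0.1 CPM. Total-count scaling shifted the median log2 ratio of all genes tested to -0.10, -0.02 and -0.15 for 96 against 72, 120 against 96 and 120 against 72 h AEL.

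At 96 against 72 h AEL, the members called higher were 2 with a pseudocount of 0.1 CPM, 0 with 5 CPM, 0 with a filter of 10 CPM, 3 at 2-fold, 2 where the whole interval passed 4-fold, 2 of those on halved counts, and 0 without near copies. The members called lower were 9 with a pseudocount of 5 CPM and 18 with a filter of 10 CPM. The median log2 ratio of members was -5.07 with 0.1 CPM, -1.03 with 5 CPM, -0.22 with no filter, -3.88 with a filter of 10 CPM and -1.69 over members with at least 10 counts in 1 library. The ratio of summed CPM, 0.261, was 0.247 with total-count scaling, 0.0699 without the most abundant member, 0.0992 without the 5 most abundant, 0.238 without near copies and 0.0243 without Cpr49Ac and Lcp1 to Lcp4. The last 2 settings that select members by name or by 10 counts were chosen after seeing the data.

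At 120 against 96 h AEL, 2 members were called lower with 0.1 CPM, the median was 0.014 with members under the floor set to 3 counts, and the ratio of summed CPM, 3.67, was 1.01, 1.00, 4.20 and 1.17 under the 4 member selections in the same order. At 120 against 72 h AEL, members called higher were 5 with 0.1 CPM, 1 with 5 CPM, 1 with a filter of 10 CPM, 5 at 2-fold, 4 by whole intervals and 1 without near copies, and members called lower 8 with 5 CPM and 18 with a filter of 10 CPM. The median there was -5.15 with 0.1 CPM, -1.02 with 5 CPM, -0.21 with no filter, -3.83 with a filter of 10 CPM and -1.70 over members with at least 10 counts. The ratio of summed CPM, 0.958, was 0.886 with total-count scaling and 0.0706, 0.0995, 0.999 and 0.0285 under the 4 selections. With a minimum of 4 counts, 33 members were detected at 120 h AEL. Apart from settings that leave members out or test fewer genes by construction, the cause of these moves was not tested.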
